A study of Rattus norvegicus with 6 samples.

Results

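Expression of 6 genes of skeletal muscle was followed in brain tissue of rats with experimental autoimmune prostatitis (EAP) and of rats labelled normal. The genes were Acta1 (ENSRNOG00000017786), Myl1 (ENSRNOG00000013262), Ryr1 (ENSRNOG00000020557), Tnni2 (ENSRNOG00000020276), Ckm (ENSRNOG00000016837) and Eno3 (ENSRNOG00000004078), and all 6 were found among the 22250 gene identifiers of the count table. They were picked by identifier, with the difference between EAP and normal libraries already known, so that difference is given here as a description and no test is read from it. The symbols came with the chosen identifiers; the table itself carries none, and no identifier could be matched to a symbol through the reference used here. The name of each gene, and other markers of muscle or of brain cell types, could therefore not be checked in the data.

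EAP is a rat model of chronic prostatitis, produced here by injecting prostate protein of rats together with Freund's adjuvant. Poly(A)-enriched RNA was sequenced from 3 EAP and 3 normal libraries. The labels give no injection for the normal rats, and nothing used here states the strain, the age, the time after injection, the brain region or how many animals each library represents. Libraries held 12534210 to 13314793 counts in EAP and 13514840 to 14669760 in normal, so depth did not overlap between the groups, and 3 counts corresponded to 0.205 to 0.235 CPM, the count of a gene scaled to the size of its library. TMM factors were used in this scaling to correct for differences in RNA make-up between libraries.

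Skeletal muscle contracts when calcium released inside the fibre lets myosin heads pull on actin filaments, and this work is paid for by ATP that creatine kinase and glycolysis restore. Acta1 encodes the skeletal form of actin, the core of the thin filament, Myl1 an alkali light chain of fast-fibre myosin, and Tnni2 the fast-fibre troponin I that holds the filament off without calcium. Ryr1 encodes the calcium release channel of the sarcoplasmic reticulum. Ckm is the muscle form of creatine kinase and Eno3 the muscle subunit of the glycolytic enzyme enolase. Brain cells rely mostly on other actins, on the brain creatine kinase and on other enolase subunits, although Ryr1 is also known from some neurons such as Purkinje cells.

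Promoters of muscle genes often hold sites for the factors that drive muscle differentiation: E boxes for the MyoD family, MEF2 sites and CArG boxes for serum response factor. RefSeq promoters of the build GRCr8 were matched by symbol for all 6 genes, with 2 start sites for Myl1 and hence 7 windows of 300 bases, reaching from 250 bases before to 50 bases after the start site. The deposited counts were made on an older build, Rnor_6.0. The 250 bases before the start site are shown for 4 of the genes. They represent the thin filament, the thick filament, the calcium control of the thin filament and the creatine kinase system. Capitals mark matches on either strand to the E box (CANNTG), the TATA box (TATAAA), the MEF2 site and the CArG box.
Acta1 (GRCr8, chr19:68784195-68784444, minus strand): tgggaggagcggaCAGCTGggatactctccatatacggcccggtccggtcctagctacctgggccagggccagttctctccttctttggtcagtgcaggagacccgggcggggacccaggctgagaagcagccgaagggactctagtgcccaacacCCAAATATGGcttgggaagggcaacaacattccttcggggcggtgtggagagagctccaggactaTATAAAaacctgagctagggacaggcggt
Myl1, start site 2 (GRCr8, chr9:75897800-75898049, minus strand): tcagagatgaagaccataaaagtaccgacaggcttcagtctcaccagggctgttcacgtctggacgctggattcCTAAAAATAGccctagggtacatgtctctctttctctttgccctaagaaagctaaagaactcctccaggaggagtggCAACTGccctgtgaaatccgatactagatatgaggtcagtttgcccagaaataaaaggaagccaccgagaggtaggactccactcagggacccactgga
Tnni2 (GRCr8, chr1:207024240-207024489, plus strand): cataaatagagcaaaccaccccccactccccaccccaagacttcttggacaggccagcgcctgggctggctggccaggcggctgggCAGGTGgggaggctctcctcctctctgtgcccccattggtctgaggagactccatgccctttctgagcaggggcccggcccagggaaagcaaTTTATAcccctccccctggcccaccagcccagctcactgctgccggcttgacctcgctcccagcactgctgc
Ckm (GRCr8, chr1:88189211-88189460, plus strand): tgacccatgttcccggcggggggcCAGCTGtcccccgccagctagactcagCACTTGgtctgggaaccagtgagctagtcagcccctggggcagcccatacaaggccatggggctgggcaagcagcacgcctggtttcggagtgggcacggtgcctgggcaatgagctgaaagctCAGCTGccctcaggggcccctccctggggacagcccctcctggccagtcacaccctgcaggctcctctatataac
An E box was present in all 7 windows, and in 72.1% of the 33365 promoter windows of the same length. The TATA box was found in 3 of the 7 windows, those of Acta1, Tnni2 and the other start site of Myl1, and in 14.2% of all windows. A CArG box stood in the Acta1 window, at positions -94 to -85 with -1 as the last base before the start site, and in 1.63% of all windows. A MEF2 site stood at the Myl1 start site shown above, at positions -176 to -167, and in 3.29% of all windows. The Ckm window held 3 E boxes, at positions -226 to -221, -199 to -194 and -75 to -70. The TATA box matches lay at -29 to -24 in Acta1 and -72 to -67 in Tnni2. At the other start site of Myl1 they lay at -237 to -232 and -126 to -121. Only the Acta1 match reads TATAAA on the strand of the gene. No matches to different motifs overlapped in these windows. These matches describe the letters of the windows only, and no binding was measured.

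**Figure D1:**
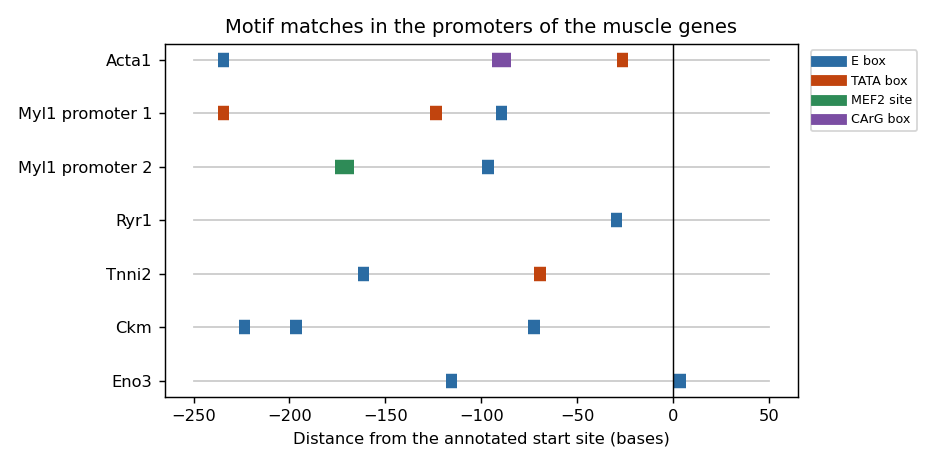
Motif matches in the 7 promoter windows of the 6 muscle genes, by distance in bases from the annotated start site (vertical line). Coloured blocks are matches; each window holds at least 1 E box, and the CArG box and the MEF2 site each occur in 1 window.

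The 3 genes of the contractile filaments were low in every EAP library and higher in every normal library, with normal replicate 1 far below the other normal libraries. Acta1 was counted 193, 44 and 88 times in EAP replicates 1 to 3, or 15.1, 3.26 and 6.53 CPM. In normal replicates 1 to 3 Acta1 had 926, 4600 and 3993 counts, or 72.4, 339.9 and 273 CPM. The groups did not overlap: normal replicate 1 lay 4.79-fold above EAP replicate 1, the highest EAP library. Mean Acta1 levels were 8.30 ± 6.12 CPM (SD, n = 3) in EAP and 228 ± 139 CPM (SD, n = 3) in normal, 27.5-fold apart, with a fitted log2 difference (EAP minus normal) of -4.79 (SE 0.95). Without EAP replicate 1 the Acta1 difference was -5.54.

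Myl1 was low in each EAP library, with 13, 13 and 16 counts (1.02, 0.964 and 1.19 CPM). The normal libraries held 129, 1449 and 1738 counts of Myl1 (10.1, 107 and 119 CPM). Among the EAP libraries no difference in this gene was detectable, at 16 counts or fewer per library. The normal libraries were unlike, since normal replicates 2 and 3 stood 10.6-fold and 11.8-fold above normal replicate 1. Mean Myl1 levels were 1.06 ± 0.117 CPM (SD, n = 3) in EAP and 78.6 ± 59.6 CPM (SD, n = 3) in normal, with a fitted log2 difference of -6.21 (SE 1.30) in edgeR and -5.56 in limma voom. Tnni2 had 5, 3 and 8 counts in EAP (0.39, 0.22 and 0.59 CPM) and 21, 557 and 597 counts in normal replicates 1 to 3 (1.64, 41.2 and 40.8 CPM). Tnni2 in normal replicate 1 was thus nearer to the EAP libraries than to the other normal libraries on the log scale, at 2.76-fold above the highest EAP library. Mean Tnni2 levels were 0.403 ± 0.186 CPM (SD, n = 3) in EAP and 27.8 ± 22.7 CPM (SD, n = 3) in normal, with a fitted log2 difference of -6.08 (SE 1.60) in edgeR and -5.18 in limma voom.

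The calcium channel gene Ryr1 followed the same order. Ryr1 had 4, 7 and 0 counts in EAP replicates 1 to 3 (0.313, 0.519 and 0 CPM), and 3 counts, the floor used for a count of 0, correspond to 0.223 CPM in EAP replicate 3. In normal replicates 1 to 3 there were 50, 317 and 457 counts (3.91, 23.4 and 31.2 CPM). Each normal library exceeded each EAP library, by at least 7.54-fold between the nearest ones. Means were 0.277 ± 0.261 CPM (SD, n = 3) in EAP and 19.5 ± 14.1 CPM (SD, n = 3) in normal, with a fitted log2 difference of -6.10 (SE 1.21). Without EAP replicate 2 the Ryr1 difference was -6.92.

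The 2 energy genes had more reads in EAP brain and smaller differences. Ckm had 286, 125 and 94 counts in EAP (22.4, 9.27 and 6.98 CPM) and 540, 2867 and 3633 counts in normal replicates 1 to 3 (42.2, 212 and 248 CPM). Normal replicate 1 was only 1.89-fold above EAP replicate 1 in Ckm. Mean Ckm levels were 12.9 ± 8.32 CPM (SD, n = 3) in EAP and 167 ± 109.9 CPM (SD, n = 3) in normal, with a fitted log2 difference of -3.70 (SE 0.94). Without EAP replicate 1 the Ckm difference was -4.37.

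Eno3 stood apart from the other members by its small and even difference. It had 251, 405 and 328 counts in EAP (19.7, 30.0 and 24.4 CPM) and 617, 940 and 905 counts in normal replicates 1 to 3 (48.3, 69.5 and 61.8 CPM). The 3 normal libraries lay within 1.44-fold of each other, where the other 5 genes spanned 4.69-fold (Acta1) to 25.1-fold (Tnni2). Mean Eno3 levels were 24.7 ± 5.19 CPM (SD, n = 3) in EAP and 59.8 ± 10.7 CPM (SD, n = 3) in normal, 2.42-fold apart, with a fitted log2 difference of -1.28 (SE 0.18).

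**Figure D2:**
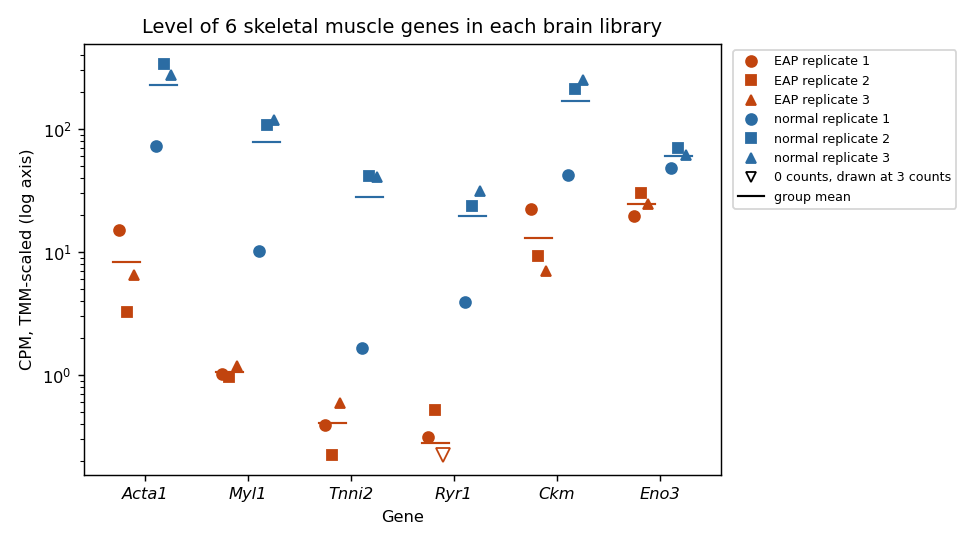
CPM on a log axis for the 6 genes in each of the 6 libraries, EAP in orange and normal in blue; horizontal lines are group means and the open triangle is Ryr1 in EAP replicate 3, at 0 counts. Normal replicate 1 (blue circles) lies between the EAP libraries and the other normal libraries in all 6 genes.

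In all 6 genes every normal library lay above every EAP library, an order that 8.41% of the 13155 genes tested shared. In all 6, this order held and normal replicate 1 was also the lowest of the normal libraries; both conditions together were met by 2.3% of the genes tested. The median fitted log2 difference was -5.43 over the 6 genes and 0.01 over all genes tested. The fitted fold was 4 or more, lower in EAP, in 5 of the 6 genes (0.388% of all genes), and 16 or more in 4 of them, Acta1, Myl1, Ryr1 and Tnni2 (0.137%). These counts and medians come from the contrast on which the genes were chosen, so nothing is read from them.

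In a fit across all genes, edgeR's quasi-likelihood test called 0 of the 6 genes lower in EAP at an adjusted p under 0.05 (0.0228% of all genes), and limma voom called 0 (0%). At an unadjusted edgeR p under 0.05 all 6 were counted (6.3%), and DESeq2 called all 6 at its adjusted p (1.14%). Without normal replicate 1, edgeR called 4 of the 6, Myl1, Ryr1, Tnni2 and Eno3 (0.337%). With the replicate number as a block it called 1, Eno3 (0.532%). These calls, too, describe the chosen genes and support nothing about them.

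Summed over the 6 genes, the EAP libraries held 58.9, 44.3 and 39.7 CPM and the normal libraries 179, 793 and 773 CPM. The group means were 47.6 ± 10.04 CPM and 581 ± 349 CPM (SD, n = 3 each), a log2 difference of -3.61. As a share of all counts, the 6 genes made up 0.00408% to 0.00600% in EAP. They made up 0.0167% in normal replicate 1 (exact Clopper-Pearson 95% interval 0.0160% to 0.0174%), 0.0794% in normal replicate 2 (0.0779% to 0.0809%) and 0.0772% in normal replicate 3 (0.0758% to 0.0786%). Intervals cover counting error only, as the reads carry no molecular identifiers. In bulk tissue, fewer cells of a type and less RNA per cell cannot be told apart.

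The normal libraries were unequal in the summed level of these genes. Over all genes every pair of libraries differed by more than counting error, so the counting intervals below give the precision of a ratio and not the spread to be expected between libraries. The summed level was 4.44-fold higher in normal replicate 2 than in normal replicate 1 (counting interval 4.24 to 4.65) and 4.33-fold higher in normal replicate 3 (4.14 to 4.53). Between normal replicates 3 and 2 the ratio was 0.975 (0.949 to 1.001). Leaving out normal replicate 1 thus reduced the ratio of the highest to the lowest normal library from 4.44 to 1.03. Across all genes tested, the median ratio of the highest to the lowest normal library was 1.28, against 6.92 over the 6 muscle genes. Normal replicates 2 and 3 were each at least 4-fold above normal replicate 1 in 4 of the 6 genes, Myl1, Ryr1, Tnni2 and Ckm, and in 0.41% of all genes. The genes were chosen on a contrast that includes these normal libraries. Their spread is thus not independent of the choice, and both comparisons with all genes are descriptions only.

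**Figure D3:**
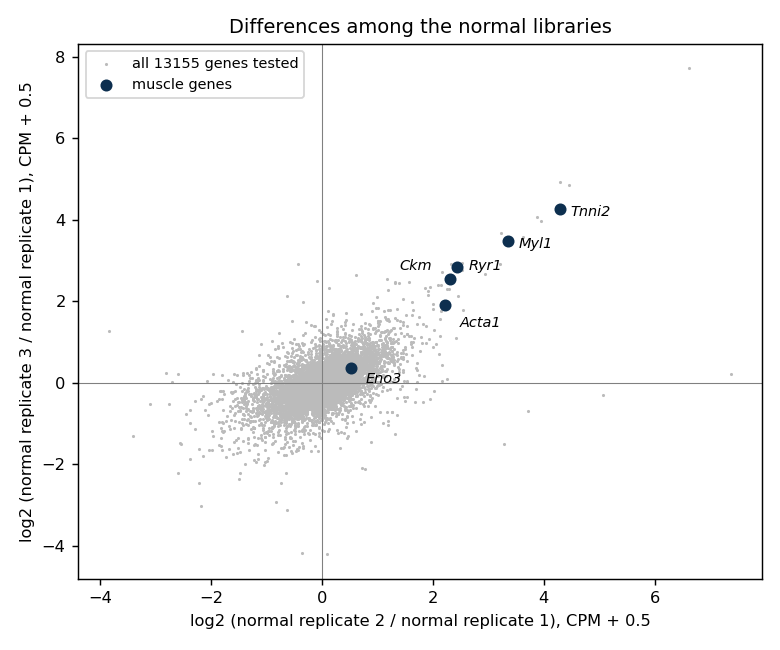
Log2 ratio of normal replicate 2 (x axis) and normal replicate 3 (y axis) to normal replicate 1 for the 13155 genes tested (grey) and the 6 muscle genes (dark), with 0.5 CPM added to each level. Eno3 lies within the grey cloud and the other 5 muscle genes at its upper right, Tnni2 the farthest.

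The gap between normal replicate 1 and the others was not the same in every gene. The ratio of normal replicate 2 to normal replicate 1 was 1.44 in Eno3 (counting interval 1.30 to 1.60), 4.69 in Acta1 (4.37 to 5.04) and 5.02 in Ckm (4.57 to 5.51). It was 5.99 in Ryr1 (4.43 to 8.24), 10.6 in Myl1 (8.86 to 12.8) and 25.1 in Tnni2 (16.2 to 40.8). For normal replicate 3 over normal replicate 1 the ratio was 1.28 in Eno3 (1.15 to 1.42), 3.76 in Acta1 (3.50 to 4.05) and 5.87 in Ckm (5.36 to 6.44). It was 7.98 in Ryr1 (5.95 to 10.9), 11.8 in Myl1 (9.83 to 14.2) and 24.8 in Tnni2 (16.1 to 40.4). In both comparisons the interval of Eno3 lay below, and that of Tnni2 above, those of the other genes. The genes between them were not set apart alike: Acta1, Ckm and Ryr1 overlapped for normal replicate 2, but for normal replicate 3 Ryr1 overlapped with Ckm and Myl1, and Acta1 with no other.

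To compare what lay above the EAP level, the mean of the EAP libraries was subtracted from each normal library. The ratio of normal replicate 3 to normal replicate 1 was then 1.57 in Eno3, 4.12 in Acta1, 8.01 in Ckm, 8.51 in Ryr1, 13.0 in Myl1 and 32.5 in Tnni2. Between normal replicates 3 and 2 the same ratio ran only from 0.797 in Acta1 to 1.34 in Ryr1. The make-up of the excess over EAP was thus closer between normal replicates 2 and 3 than between either of them and normal replicate 1. These subtracted ratios carry no intervals. That of Tnni2 rests on an excess of 1.24 CPM in normal replicate 1, from 21 counts. The ratios also depend on the EAP mean that was subtracted. Ckm, for example, ran from 6.98 to 22.4 CPM in the EAP libraries, against 42.2 CPM in normal replicate 1.

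**Figure D4:**
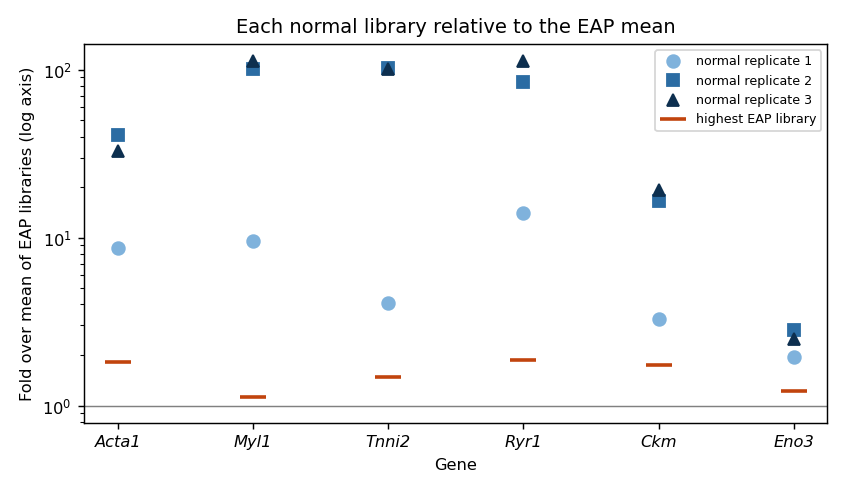
Level of each gene in each normal library as a fold over the mean of the 3 EAP libraries (log axis); the orange bar is the highest EAP library and the grey line is 1. Normal replicates 2 and 3 lie close together in every gene. Normal replicate 1 lies below them, at 1.96-fold (Eno3) to 14.1-fold (Ryr1) over the EAP mean.

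Small differences remained between normal replicates 2 and 3. Acta1 (ratio of normal replicate 3 to 2 of 0.802, counting interval 0.768 to 0.837) and Eno3 (0.889, 0.811 to 0.975) were higher in normal replicate 2. Myl1 (1.11, 1.03 to 1.19), Ckm (1.17, 1.11 to 1.23) and Ryr1 (1.33, 1.15 to 1.54) were higher in normal replicate 3. The counting interval of Tnni2 included 1 (0.990, 0.881 to 1.11).

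The EAP libraries also differed among themselves in some of the genes. EAP replicate 1 held 4.63-fold more Acta1 than EAP replicate 2 (counting interval 3.32 to 6.58) and 2.31-fold more than EAP replicate 3 (1.79 to 3.01). Ckm was likewise 2.42-fold (1.95 to 3.01) and 3.21-fold (2.53 to 4.09) higher in EAP replicate 1. Eno3 went the other way and was lowest in EAP replicate 1, at 0.655 of EAP replicate 2 (0.557 to 0.768). For Myl1 and Tnni2 the ratios of EAP replicate 1 to EAP replicate 2 had intervals that include 1 (0.451 to 2.47 and 0.342 to 11.3), at 16 counts or fewer per library, so no difference was detectable at this depth. Ryr1 in EAP replicate 3, at 0 counts, lay below EAP replicate 2, at 7 counts (upper bound of the ratio 0.695). Against EAP replicate 1, at 4 counts, no Ryr1 difference was detectable. The interval of EAP replicate 1 over EAP replicate 3 started at 0.696 and included 1.

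The make-up of the muscle gene counts changed accordingly. Eno3 took 33.4%, 67.8% and 61.4% of the counts of the 6 genes in EAP replicates 1 to 3, 27.0% in normal replicate 1, and 8.76% and 7.99% in normal replicates 2 and 3. Acta1 took 25.7%, 7.37% and 16.5% in EAP and 40.6%, 42.9% and 35.3% in normal replicates 1 to 3. Myl1 stayed between 1.73% and 2.996% in EAP, took 5.65% in normal replicate 1, and reached 13.5% and 15.3% in the other normal libraries. Normal replicate 1 thus lay between the EAP libraries and the other normal libraries in the shares of Eno3 and Myl1, but among the normal libraries in that of Acta1. Shares are of counts, not per length, so they compare libraries within a gene and not genes with each other.

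**Figure D5:**
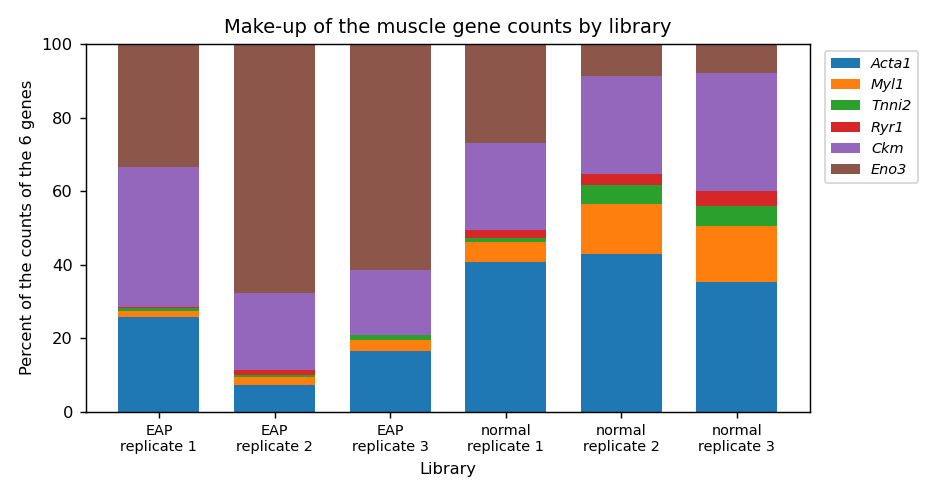
Percent of the counts of the 6 genes that each gene takes in each library (bars sum to 100%). Eno3 takes 61.4% or more in EAP replicates 2 and 3 and 8.76% or less in normal replicates 2 and 3, with normal replicate 1 at 27.0%.

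Across the 6 libraries the genes varied together. Pearson's r between pairs of genes, on log2 CPM, ran from 0.863 (Ckm and Eno3) to 0.984 (Myl1 and Tnni2). The 6 points share the group difference and the choice of the genes, so r is a description. Against the mean standardized profile of the 6 genes, Myl1 had the highest r at 0.996 and Eno3 the lowest at 0.944. Of 12837 other genes whose mean log2 CPM was 0 or higher, 44 had an r of at least 0.95 with this profile (0.343%) and 30 had an r of -0.95 or below (0.234%).

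The 2 genes closest to the profile carry no symbol here. ENSRNOG00000023227 (r = 0.997 over 6 libraries) had 1, 0 and 0 counts in EAP and 36, 338 and 300 counts in normal replicates 1 to 3. ENSRNOG00000049695 (r = 0.997) had 11, 9 and 11 counts in EAP and 476, 10018 and 16846 counts in normal replicates 1 to 3. Both were picked for their likeness over these same 6 libraries, so their order of libraries follows from the choice.

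The levels of the muscle genes moved with the group and also with single libraries of the normal group. Whether muscle tissue was carried into the normal libraries at dissection, in an amount that differed between them, or whether EAP lowered these transcripts in brain, was not tested. Dissection is not described in the labels, and no library of muscle or of another tissue was analysed here. Acta1 shares long stretches with other actin genes, so reads of uncertain assignment could add to its counts.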

How the data were processed

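The deposited table gives raw counts of reads by Ensembl gene identifier; per the file headers these are read counts, and the values are whole numbers. Tools named per the submitters' processing notes are Trimmomatic (0.39), HISAT2 (2.2.1), featureCounts (2.0.3) and DESeq2 (1.36.0), with Rnor_6.0 as the build. Settings, strand and annotation are not stated. Each of the 6 count columns names 1 library.

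The members and lists were chosen with earlier results of these data known. Of the 22250 identifiers, 0 matched a symbol in the reference gene table, so marker lists of muscle, heart, smooth muscle, blood, meninges, choroid plexus, pituitary and brain cells were not applied. Motifs were searched in RefSeq promoters of GRCr8. The genes named are the 6 members and the 2 others with the highest correlation to their mean standardized log2 CPM (prior count 2).

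Counts were fitted with edgeR 4.0.16 (R 4.3.3), using TMM factors, its expression filter by group (13155 genes kept; all 6 members passed) and robust dispersions, two-sided, with Benjamini-Hochberg adjustment over all genes at 0.05. The filter can keep a gene through the group where it is high. Standard errors follow from the F statistic. DESeq2 1.42.0 and limma voom (limma 3.58.1) were alternatives, beside other scaling, filters, the replicate block and leaving out each library. Ratios of 2 libraries have exact binomial counting intervals at 95%. The fits were tested on simulated data. No library copied another: over all pairs, chi-square per degree of freedom was 20.9 or higher. The labels number the libraries but name no animals, so SDs and p-values cover the spread of these libraries alone, which may be technical.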

Additional observations from a re-analysis of the deposited data

How the results depend on the processing

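The direction of the 6 muscle genes held under every alternative run: all 84 recomputed log2 fold changes were negative. The choice of the genes all but fixes that direction. None moved by as much as the SD of its gene within groups. That SD was wide in log2 CPM, from 1.14 (Acta1) to 1.84 (Tnni2) in all but Eno3 (0.285). It thus sets a loose limit on size: Ryr1 ran from -6.92 to -5.52 and Tnni2 from -6.64 to -5.18. The summed level, EAP over normal, stayed between -4.13 and -3.17 on the log2 scale. The mean of the log2 ratios of same-numbered libraries, a different measure from the ratio of group means, was -3.35. The median log2 fold change was -5.33 with the replicate block and -5.89 to -5.05 without 1 library. The ratio of the highest to the lowest normal library was 4.75 with total counts only, 4.71 without Acta1, and 1.03 to 4.45 without 1 normal library, the lowest value being that without normal replicate 1.

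The number of genes past the threshold, 4 in edgeR (1464 at an unadjusted p under 0.05), depended on the setting. It was 0 with upper-quartile factors (1536 unadjusted), 1 with total counts only, 7 with no filter, 187 with DESeq2, 1 with limma voom and 80 with the replicate block. It was 0 to 47 without 1 library: 0 without EAP replicate 2, EAP replicate 3 or normal replicate 3 (980, 1013 and 965 unadjusted), 14 without EAP replicate 1, 47 without normal replicate 1 and 22 without normal replicate 2. The cause was not tested. No label says what a replicate number stands for. Libraries with the same number had correlated deviations (0.0515 to 0.0718), short of 0.1, a limit chosen here and not calibrated. Each of the 6 matched its own number best, at most a weak hint of pairing from the data only. Deviations were taken from the mean of each group, so these matches are not independent of each other. Whether same-numbered libraries are pairs was not tested, and the main fit did not model pairs. Same-numbered libraries differed in the summed level by -1.60, -4.16 and -4.28 on the log2 scale. Depth limits Myl1, Ryr1 and Tnni2 in EAP, with 0 to 16 counts per library.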
